A study of Mus musculus with 27 samples.

Results

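Cyclosporin A (CsA) cultures of mouse bone marrow were followed from 12 h to 48 h after the start of culture with Flt3 ligand (Flt3-L). The comparison rests on 6 of the series' 27 arrays, chosen by their titles: 3 arrays at 48 h and 3 arrays at 12 h, all with CsA. The comparison asks which early changes in culture go ahead while the calcineurin and NFAT pathway is inhibited. Bone marrow came from femurs and tibiae of C57BL/6 mice aged 8 to 12 weeks. Every culture used here held Flt3-L at about 200 ng/ml, taken from transfected B16 tumor cells. CsA was added at 2 µg/ml 30 min before Flt3-L and stayed in the medium. The same interval in cultures with Flt3-L alone (3 arrays at 12 h and 3 at 48 h) served as the reference, and 3 CsA arrays at 24 h split the interval in 2 steps. The replicates are described as biological, without a statement on whether mice were pooled.

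Flt3-L is a cytokine that binds the receptor tyrosine kinase Flt3 on early progenitors and supports the growth of dendritic cells and other myeloid cells from bone marrow. Calcineurin is a calcium-activated phosphatase that removes phosphates from NFAT transcription factors, which then enter the nucleus. CsA binds the protein cyclophilin, and the complex blocks calcineurin. Whole marrow put into such a culture holds many lineages at once, among them red cell precursors, granulocytes, B cell precursors, monocytes, eosinophils and basophils, and Flt3-L does not support all of them. In such mixed samples, fewer cells of a type and less RNA per cell cannot be told apart.

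The arrays gave 1 intensity per probe set, and 19935 genes were tested on the log2 scale. Genes are described as changed, or called, where the limma fit to all 27 arrays gave an adjusted p under 0.05, with Benjamini-Hochberg adjustment over all of them. Errors are SE from that fit, and each group has n = 3 arrays. Arrays of one CsA group correlated at 0.9966 to 0.9984. Of these, only CsA array 3 at 12 h was nearest to an array of another group, array 3 at 12 h without CsA (r = 0.9976). The margin was small, since it correlated with its own group at 0.9966 and 0.9972. Defining markers of the labelled tissue were present in unstimulated marrow at mean log2 intensities of 11.69 for the erythroid gene Rhag, 12.41 for the neutrophil gene Ly6g and 10.32 for the macrophage receptor gene Csf1r. The stromal gene Lum stood at 3.95.

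From 12 h to 48 h with CsA, genes of macrophages, of lipid handling and of lysosomes rose, and genes of red cell precursors, of mitosis, of granule formation and of eosinophils and basophils fell. In all, 4251 genes were higher at 48 h (21.3% of the genes tested) and 3348 were lower (16.8%). At least 2-fold changes numbered 299 upward (1.50%) and 339 downward (1.70%). Without CsA array 3 at 12 h, the changes of Atp6v0d2 (3.97), Mmp12 (3.82), Rhag (-3.25) and Cenpf (-1.39) on the log2 scale stayed close to their full values given below. Of the 19935 genes, the 3 arrays at 48 h lay entirely above the 3 at 12 h for 4980 and entirely below for 3905. With 3 arrays a group, some such separation arises without any change. The split of calls depended on centring: with each array's median subtracted, 3219 genes were higher and 4006 lower, so 44.6% in place of 55.9% of calls were rises. The median over all genes was 0.06 before that step.

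**Figure D1:**
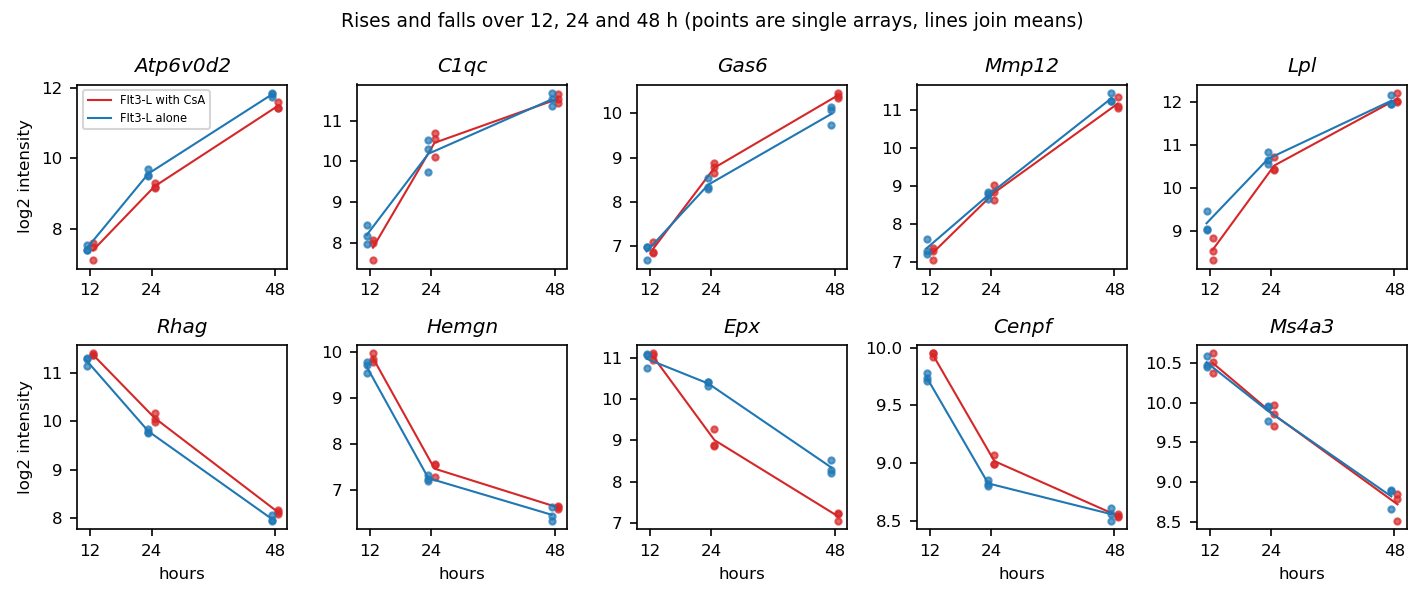
Log2 intensity (vertical axes) at 12, 24 and 48 h (horizontal axes) for 5 genes that rose and 5 that fell with CsA; points are single arrays, red with CsA and blue with Flt3-L alone, and lines join group means. Epx fell further with CsA (14.7-fold) than without it (6.24-fold), while the lines of Rhag, Hemgn and Mmp12 ran close together.

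Genes of the macrophage program gave the largest rises. Atp6v0d2, a subunit of the proton pump that acidifies lysosomes, read 7.46, 7.58 and 7.10 at 12 h, 9.29, 9.17 and 9.14 at 24 h and 11.61, 11.43 and 11.42 at 48 h. The groups did not overlap, and the rise was 17.3-fold (log2 change 4.11 ± 0.12 SE, limma adjusted p = 1.1e-18). Mmp12, the macrophage elastase, read 7.38, 7.31 and 7.06 at 12 h and 11.34, 11.11 and 11.04 at 48 h, a 15.1-fold rise (log2 change 3.91 ± 0.13 SE). C1qc, which encodes a chain of complement C1q, went from 8.07, 7.99 and 7.57 to 11.65, 11.43 and 11.54 (12.7-fold). The other chains C1qb (8.24-fold) and C1qa (6.45-fold) rose with it.

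Other members of the macrophage, lectin and scavenging lists rose as well. Gas6, a ligand of the TAM receptors, read 7.09, 6.85 and 6.87 at 12 h and 10.34, 10.40 and 10.46 at 48 h (11-fold, log2 change 3.46 ± 0.10 SE). Mertk, a TAM receptor, read 7.56, 7.10 and 6.79 and then 10.26, 10.29 and 10.16 (8.49-fold). The mannose receptor Mrc1 rose 9.78-fold, the sialoadhesin gene Siglec1 6.92-fold and the scavenger receptor gene Stab1 4.4-fold. Means of Gas6, Mertk, Mrc1 and Siglec1 were lower at 12 h with CsA (6.94, 7.15, 6.86 and 6.86) than in unstimulated marrow (7.64, 7.87, 8.59 and 7.9). Part of these rises thus regained the marrow level. Mmp12 was instead higher at 12 h than in marrow (7.25 against 5.77). Of the 28 monocyte and macrophage genes tested, 21 rose and 1 fell, with a median log2 change of 1.13 against 0.06 over all genes. Of 24 complement and scavenging genes, 17 rose and 5 fell, where 21.3% of all genes rose and 16.8% fell. The falls of that list were near the share of all genes. F13a1, a clotting factor subunit gene made by monocytes, was among those lower at 48 h (log2 change -0.42 ± 0.06 SE).

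Cd5l, a secreted macrophage protein, was uneven between replicates: it read 8.24, 6.90 and 6.68 at 12 h and 10.69, 9.98 and 9.93 at 48 h. Array 1 was the highest at both times, as it was in both groups with Flt3-L alone, and the rise of 7.6-fold carries the widest error of the 15 largest rises (log2 change 2.93 ± 0.41 SE). The growth factor gene Igf1 went from 8.17, 7.74 and 7.55 to 11.62, 11.41 and 11.27 (12.2-fold). The aminopeptidase gene Anpep rose 6.89-fold, and Lrp12, a member of the LDL receptor family, 7.14-fold.

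Lipid handling and lysosome genes rose together with these, where 21.3% of all genes rose and 16.8% fell. The lipoprotein lipase gene Lpl, whose product frees fatty acids from lipoproteins, read 8.83, 8.53 and 8.32 at 12 h and 12.21, 12.01 and 12.00 at 48 h (11.5-fold, log2 change 3.52 ± 0.12 SE). Fatty acid binding protein genes rose 14-fold (Fabp7), 9.6-fold (Fabp4) and 4.71-fold (Fabp5), and the apolipoprotein gene Apoe 3.35-fold. Of 18 genes of lipid efflux and LXR targets, 15 rose and 1 fell (median log2 change 1.15). Of 27 lysosome genes, 23 rose and none passed the limma test downward (1 did at an unadjusted p under 0.05; median 0.68). In 8 of the alternative fits 1 lysosome gene was called lower. The cysteine protease gene Ctsl went from 10.34, 10.32 and 10.27 to 12.10, 11.92 and 11.78 (3.08-fold), Naglu, which encodes a heparan sulfate-degrading enzyme, from 8.26, 8.26 and 8.10 to 9.72, 9.86 and 9.80 (3.01-fold), and the acid lipase gene Lipa rose 2.17-fold. Sterol synthesis genes went the other way in part: 9 of 19 fell and 10 did not pass the test (median log2 change -0.14). None passed the limma test upward (1 did at an unadjusted p under 0.05). In some alternative fits, among them that with dim genes left out, 1 sterol gene was called higher. The squalene synthase gene Fdft1 read 10.87, 10.93 and 10.78 and then 10.24, 10.15 and 10.22 (log2 change -0.66 ± 0.06 SE).

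Dendritic cell genes rose in part, where 21.3% of all genes rose and 16.8% fell. Of 30 conventional dendritic cell genes, 19 rose and 4 fell (median log2 change 0.44). Clec9a, a receptor for dead cells on cross-presenting dendritic cells, read 6.54, 6.64 and 6.38 at 12 h and 8.12, 8.22 and 8.27 at 48 h (3.21-fold). The chemokine receptor gene Xcr1, a marker of the same cells, rose 3.25-fold, the RNA sensor gene Tlr3 4.63-fold and the lectin gene Cd209a 2.45-fold. Tlr3 read 5.27, 5.27 and 5.26 at 12 h, near the floor, so the size of its fold is uncertain. Flt3 itself, the receptor for the cytokine in the medium, read 8.77, 8.81 and 8.67 at 12 h and 9.89, 9.88 and 9.85 at 48 h; its groups did not overlap and the rise was 2.18-fold. Of 18 plasmacytoid dendritic cell genes, 7 rose and 2 fell, with 4 falls where array medians were subtracted. Among megakaryocyte and platelet genes 11 of 13 rose and 1 fell. The platelet chemokine gene Pf4 rose 2.61-fold, and Nfe2, a transcription factor that erythroid cells also use, fell 2.18-fold.

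The erythroid list fell as a whole: 19 of 19 genes tested were lower at 48 h, with a median log2 change of -2.15, and 16 of them by at least 2-fold. Of all genes, 16.8% fell, and 1.70% fell by at least 2-fold. Rhag, which encodes the Rh-associated glycoprotein of the red cell membrane, read 11.40, 11.36 and 11.36 at 12 h, 10.18, 10.05 and 9.98 at 24 h and 8.09, 8.12 and 8.18 at 48 h. The groups stood clear of each other at each step, and the fall was 9.46-fold (log2 change -3.24 ± 0.06 SE, limma adjusted p = 1.29e-21). Hemgn, a nuclear protein of blood precursors, went from 9.97, 9.79 and 9.86 to 6.63, 6.66 and 6.60 (9.48-fold lower), and Rhd from 11.53, 11.34 and 11.40 to 8.38, 8.31 and 8.52 (8.11-fold lower). The carbonic anhydrase gene Car1 fell 7.48-fold and the water channel gene Aqp1 11-fold. The transcription factor genes Klf1 (log2 change -2.42 ± 0.10 SE) and Gata1 (-1.11 ± 0.10 SE) and the erythropoietin receptor gene Epor (-1.46 ± 0.10 SE) fell with them.

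Other genes among the 15 largest falls were Ces2g, of a carboxylesterase family (12-fold), Pkhd1l1 (11.7-fold), Nxpe2 (9.19-fold), the matrix proteoglycan gene Vcan (8.48-fold), the mitochondrial carrier gene Slc25a21 (7.31-fold) and Ermap, of an erythroid membrane protein (6.86-fold). Pkhd1l1 and Slc25a21 ended low, at means of 5.49 and 5.85 at 48 h, which may limit the size of their folds. Vcan read 9.81, 9.67 and 9.57 at 12 h, 8.02, 8.51 and 8.18 at 24 h and 6.48, 6.73 and 6.59 at 48 h, and its groups did not overlap at any step.

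Mitotic genes fell without exception among those listed. All 31 G2 and M phase genes tested were lower at 48 h (median log2 change -0.84), 9 of them by at least 2-fold. Cenpf, a kinetochore protein, read 9.92, 9.95 and 9.95 at 12 h and 8.53, 8.54 and 8.56 at 48 h (2.63-fold lower, log2 change -1.40 ± 0.06 SE). Nusap1, a spindle protein, read 11.20, 11.19 and 11.04 and 9.90, 9.94 and 9.86 (2.36-fold lower), and Cdc25c, the phosphatase that activates Cdk1, 8.02, 8.08 and 7.99 and 6.71, 6.99 and 6.79 (2.3-fold lower). Of 35 G1 and S phase genes, 21 fell and 3 rose, where 16.8% of all genes fell and 21.3% rose. The D-type cyclins, partners of Cdk4 and Cdk6, moved apart. Ccnd1 rose from 8.73, 8.81 and 8.69 to 10.71, 10.65 and 10.58 (3.74-fold), Ccnd2 rose 1.43-fold and Ccnd3 fell 1.22-fold. Cdk4 rose 1.3-fold, and Cdk6 did not pass the test (log2 change 0.12 ± 0.05 SE, limma adjusted p = 0.0567). The inhibitor genes Cdkn1b (log2 change -0.92 ± 0.07 SE, and -1.56 by its other probe set), Cdkn2c (-0.78 ± 0.06 SE) and Cdkn2d (-0.64 ± 0.09 SE) fell.

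Promoters of the mitotic and lysosome lists are shown because members of each list moved together. They come from RefSeq on GRCm38.p6 and run 5′ to 3′ on the gene's strand, from 250 bases before to 30 after the start. Within each list the members with the largest change among those eligible were taken, whatever motifs they hold. Eligible genes had a single listed start and did not lie on the chromosome of Cdc25c, whose genes were left out. Cdc25c, of the mitotic list, is therefore not shown, though it changed slightly more (log2 change -1.199) than Hmmr (-1.186). Atp6v0d2, of the lysosome list, was not eligible either, though it changed far more (4.11) than Ctsl (1.62) and Naglu (1.59). For Cenpf, Nusap1 and Hmmr, which encodes a spindle-associated hyaluronan receptor, capitals mark TTTGAA (the cell cycle homology region, CHR) and CCAAT on either strand. For Ctsl and Naglu, capitals mark CACGTG.
Cenpf, chr1:189688057-189688336 (- strand): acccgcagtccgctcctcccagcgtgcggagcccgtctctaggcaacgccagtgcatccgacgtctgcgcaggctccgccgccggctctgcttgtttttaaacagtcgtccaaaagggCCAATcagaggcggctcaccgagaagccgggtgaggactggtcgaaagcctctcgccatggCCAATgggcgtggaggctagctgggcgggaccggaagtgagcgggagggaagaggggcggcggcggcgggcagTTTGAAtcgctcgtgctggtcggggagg
Nusap1, chr2:119618048-119618327 (+ strand): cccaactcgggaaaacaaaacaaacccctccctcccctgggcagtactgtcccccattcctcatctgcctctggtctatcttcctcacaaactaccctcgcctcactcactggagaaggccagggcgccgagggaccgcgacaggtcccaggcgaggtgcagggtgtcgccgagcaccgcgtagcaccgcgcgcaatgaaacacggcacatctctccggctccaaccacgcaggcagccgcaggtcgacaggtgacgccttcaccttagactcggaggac
Hmmr, chr11:40733408-40733687 (- strand): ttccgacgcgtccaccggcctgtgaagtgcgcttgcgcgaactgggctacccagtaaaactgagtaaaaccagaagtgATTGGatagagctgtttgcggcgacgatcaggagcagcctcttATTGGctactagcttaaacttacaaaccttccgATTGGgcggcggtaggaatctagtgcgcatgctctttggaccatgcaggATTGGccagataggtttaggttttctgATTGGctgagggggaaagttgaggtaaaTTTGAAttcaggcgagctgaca
Ctsl, chr13:64370491-64370770 (- strand): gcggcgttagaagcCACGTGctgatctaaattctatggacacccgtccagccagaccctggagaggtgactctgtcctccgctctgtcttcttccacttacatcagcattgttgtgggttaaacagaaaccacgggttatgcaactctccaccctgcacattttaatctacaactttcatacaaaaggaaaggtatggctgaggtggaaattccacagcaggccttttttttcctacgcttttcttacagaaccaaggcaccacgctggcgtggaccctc
Naglu, chr11:101069844-101070123 (+ strand): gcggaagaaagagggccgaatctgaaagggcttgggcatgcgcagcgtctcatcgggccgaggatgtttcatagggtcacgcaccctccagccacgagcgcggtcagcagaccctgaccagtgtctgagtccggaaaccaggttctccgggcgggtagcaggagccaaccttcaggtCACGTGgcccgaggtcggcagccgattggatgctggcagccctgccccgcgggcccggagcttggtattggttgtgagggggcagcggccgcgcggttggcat

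The Cenpf stretch held 1 CHR and 2 CCAAT matches, the Hmmr stretch 1 and 5, and the Nusap1 stretch neither. Over windows of 300 bases (250 before to 50 after the start), TTTGAA lay in 21 of 27 windows of the mitotic list (77.8%) against 14.8% of 19175 windows of all genes tested. CCAAT lay in 20 of the 27 (74.1%) against 37.4%, and both together in 18 (66.7%) against 5.85%. CACGTG lay in 11 of 27 lysosome windows (40.7%) against 8.25%, and the longer TCACGTGA, which contains it, in 6 (22.2%) against 1.32%. The site of GATA factors, searched as AGATAA, lay in 8 of 17 erythroid windows (47.1%) and in 7 of 21 windows of the mast cell, basophil and eosinophil list (33.3%), against 9.25%. GGAAAA, the NFAT core, lay in 5 of those 21 windows (23.8%) against 22.0%. Windows were held for 25 of 31 mitotic, 23 of 27 lysosome, 16 of 19 erythroid and 18 of 23 mast cell, basophil and eosinophil genes. In all, 15 motifs were searched in these 4 lists on both strands, and overlapping motifs were counted separately. The rest were a sterol response element (TCACCCCA), the E2F sites (TTGGCGC, or TTCGCGC), an ATF4 element (TGATGNAA), an antioxidant element (TGACNNNGC), a PU.1 site (GAGGAAGT), an AP-1 site (TGANTCA), the LXR direct repeat and a CACCC box (CCACACCC). The GATA site and the CACCC box were added after the values were seen. A match describes letters in a window and is no evidence of binding.

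Genes of granulocyte precursors fell, and about as many late neutrophil genes fell as did not pass the test. Of all genes, 21.3% rose and 16.8% fell. Of 18 primary granule and promyelocyte genes 16 fell and 2 rose (median log2 change -0.82). Ms4a3, a marker of granulocyte and monocyte progenitors, read 10.37, 10.62 and 10.51 at 12 h and 8.51, 8.79 and 8.85 at 48 h (3.44-fold lower), and the proteinase 3 gene Prtn3 fell 2.41-fold. Of 22 late neutrophil genes 11 fell (median -0.23), and none was higher by limma even at an unadjusted p under 0.05. That count rested on single arrays: it was 6 without CsA array 2 at 12 h and 4 without CsA array 1 at 48 h, and 1 gene was called higher in the latter fit. Ly6g read 11.65, 11.83 and 11.72 and then 10.55, 10.72 and 10.68 (2.12-fold lower), while the granule genes Ltf (log2 change 0.05 ± 0.07 SE) and Lcn2 (-0.03 ± 0.07 SE) did not pass the test.

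Lymphoid lists fell in part, where 21.3% of all genes rose and 16.8% fell. The rises of the B lineage list were near the share of all genes that rose. Of 23 B lineage genes 13 fell and 5 rose, and the 5 became 3 without CsA array 2 at 12 h or without CsA array 1 at 48 h. The surrogate light chain gene Igll1 read 10.67, 10.39 and 10.40 and then 8.39, 8.15 and 8.17 (4.75-fold lower), and the recombinase genes Rag1 and Rag2 fell 2.55-fold and 2.79-fold. Of 23 T and NK cell genes 14 fell and 2 rose, with 9 falls where dim genes were left out. Il2rb, a chain of the IL-2 and IL-15 receptors, fell 4.29-fold, and the costimulatory receptor gene Cd28 rose from 8.37, 8.46 and 8.18 to 10.02, 10.13 and 10.10 (3.35-fold). Of 21 stromal and endothelial genes 3 rose and 4 fell, near the 21.3% and 16.8% of all genes. Without CsA array 3 at 12 h, 5 of them rose. Without CsA array 1 at 48 h, 7 fell, as with array medians subtracted, and 2 fell without either of the other CsA arrays at 48 h.

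Components of the blocked pathway moved both ways, none by 2-fold. Of 27 calcineurin and NFAT component genes 9 rose and 9 fell (median log2 change -0.03), where 21.3% of all genes rose and 16.8% fell. The catalytic subunit genes Ppp3ca, at 10.99, 11.10 and 11.08 and then 10.85, 10.98 and 10.88, and Ppp3cb fell 1.12-fold and 1.19-fold. The Ppp3ca call was lost without CsA array 2 at 12 h (adjusted p = 0.0548) and without CsA array 1 at 48 h (adjusted p = 0.0664), and with only the groups compared in the fit (adjusted p = 0.093). Nfatc2 rose 1.6-fold, Nfatc3 fell 1.17-fold, and Nfatc1 did not pass the test (log2 change -0.07 ± 0.06 SE, limma adjusted p = 0.363). Rcan1, a feedback inhibitor of calcineurin that NFAT is known to induce, read 7.84, 7.60 and 7.93 at 12 h and 8.40, 8.20 and 8.23 at 48 h (1.4-fold higher). Of 32 NFAT-linked and immediate early genes 6 rose and 9 fell, beside the same 21.3% and 16.8% of all genes. Egr2 rose 3.29-fold and Atf3 2.83-fold.

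Stress, metabolic and inflammatory lists were mixed, where 21.3% of all genes rose and 16.8% fell. The rises of the p53 and inflammatory lists were near the share of all genes that rose. Of 24 ribosome biogenesis genes 19 rose (median 0.46), and none was lower by limma even at an unadjusted p under 0.05. Myc, a transcription factor that drives ribosome production, rose 1.59-fold and the nucleolar methyltransferase gene Fbl 1.71-fold. Of 21 endoplasmic reticulum folding genes 19 rose and 1, Herpud1, fell (log2 change -0.58 ± 0.07 SE). The largest rise in that list was that of Sdf2l1 (2.25-fold). Of 28 genes of the ATF4 and amino acid response 17 fell and 3 rose. Ddit3, the stress factor CHOP, fell 1.92-fold and the asparagine synthetase gene Asns 1.59-fold. Of 23 NRF2 antioxidant genes 9 rose and 7 fell: the heme oxygenase gene Hmox1 rose 2.37-fold and the quinone reductase gene Nqo1 fell 1.95-fold. Of 24 glycolysis and hypoxia genes 14 rose and 3 fell. Of 22 p53 targets 5 rose and 10 fell, and the 5 became 3 without CsA array 2 at 12 h or without CsA array 1 at 48 h, and with array medians subtracted. The kinase gene Plk2 rose 5.54-fold. Of 22 interferon-stimulated genes 11 fell and 3 rose, and the 11 became 7 without CsA array 2 at 12 h or without CsA array 1 at 48 h. Rsad2, an antiviral enzyme gene, fell from 12.16, 12.08 and 11.99 to 10.41, 10.46 and 10.59 (3.02-fold). Of 32 inflammatory genes 7 rose and 12 fell: the monocyte chemokine genes Ccl2 and Ccl7 rose 4.22-fold and 5.19-fold and the neutrophil chemokine gene Cxcl2 fell 3.04-fold.

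Regulators and surface receptors moved both ways, where 21.3% of all genes rose and 16.8% fell. The rises of the stem and progenitor list were not above the share of all genes that rose. Of 34 lineage transcription factor genes 15 rose and 12 fell. Bhlhe41 rose 5.6-fold, from 7.30, 7.25 and 6.84 to 9.59, 9.54 and 9.71, and Maf, which macrophages use, 3.06-fold. The factors of conventional dendritic cells Irf8 (log2 change 0.41 ± 0.11 SE), Batf3 (0.37 ± 0.09 SE) and Id2 (0.70 ± 0.05 SE) rose less, and the granulocyte factors Gfi1 (-0.85 ± 0.07 SE) and Cebpe (-0.68 ± 0.09 SE) fell. Of 24 stem and progenitor genes 4 rose and 9 fell, with the stem cell factor receptor gene Kit at -0.51 ± 0.12 (SE). Of 28 cytokine receptor and STAT response genes 10 rose and 11 fell: the survival genes Bcl2 (1.04 ± 0.11 SE) and Bcl2l1 (-0.93 ± 0.06 SE) moved in opposite directions. Of 28 myeloid lectin and Fc receptor genes 14 rose and 7 fell, and the 7 became 4 without CsA array 2 at 12 h. Of 15 chemokine receptor genes 1, Xcr1, rose and 8 fell. Of 23 matrix and pericellular proteolysis genes 14 rose and 6 fell, and the 6 became 3 without CsA array 2 at 12 h or without CsA array 1 at 48 h.

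The 24 h arrays placed these changes in time. From 12 h to 24 h, 1621 genes rose (8.13%) and 1640 fell (8.23%), and from 24 h to 48 h, 2587 rose (13.0%) and 1841 fell (9.24%). With array medians subtracted, the first step had 1114 rises and 2077 falls, so 34.9% in place of 49.7% of its calls were rises. The steps share the 24 h arrays and are set side by side only. Of the 299 genes that rose at least 2-fold over the interval, 270 passed the test in both steps, 8 in the first only and 21 in the second only. Of the 339 that fell, 272 did so in both, 19 in the first only, 41 in the second only and 7 in neither. The first step held a median of 47.3% of the rise and 49.3% of the fall on the log2 scale. Among G2 and M phase genes, 30 of 31 fell in the first step and 26 in the second.

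The same interval with Flt3-L alone gave a similar picture on separate arrays. There, 3283 genes rose (16.5%) and 2925 fell (14.7%). The changes in the 2 arms correlated across all 19935 genes at r = 0.901, a description over genes that share arrays and are not independent. The 2848 genes that rose in both arms made up 67.0% of the rises with CsA and 86.7% of those without. For falls the shared genes numbered 2287, or 68.3% and 78.2%. Of the 217 genes that rose at least 2-fold with Flt3-L alone, 216 were called in the same direction with CsA, and of the 232 that fell, 231 were. Called in opposite directions were 5 genes that rose and 16 that fell with Flt3-L alone. Erythroid genes fell in 19 of 19 cases in that arm too (median log2 change -2.10 against -2.15), and G2 and M phase genes in 31 of 31 (median -0.74 against -0.84). Monocyte and macrophage genes rose in 23 of 28 (median 0.89 against 1.13).

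**Figure D2:**
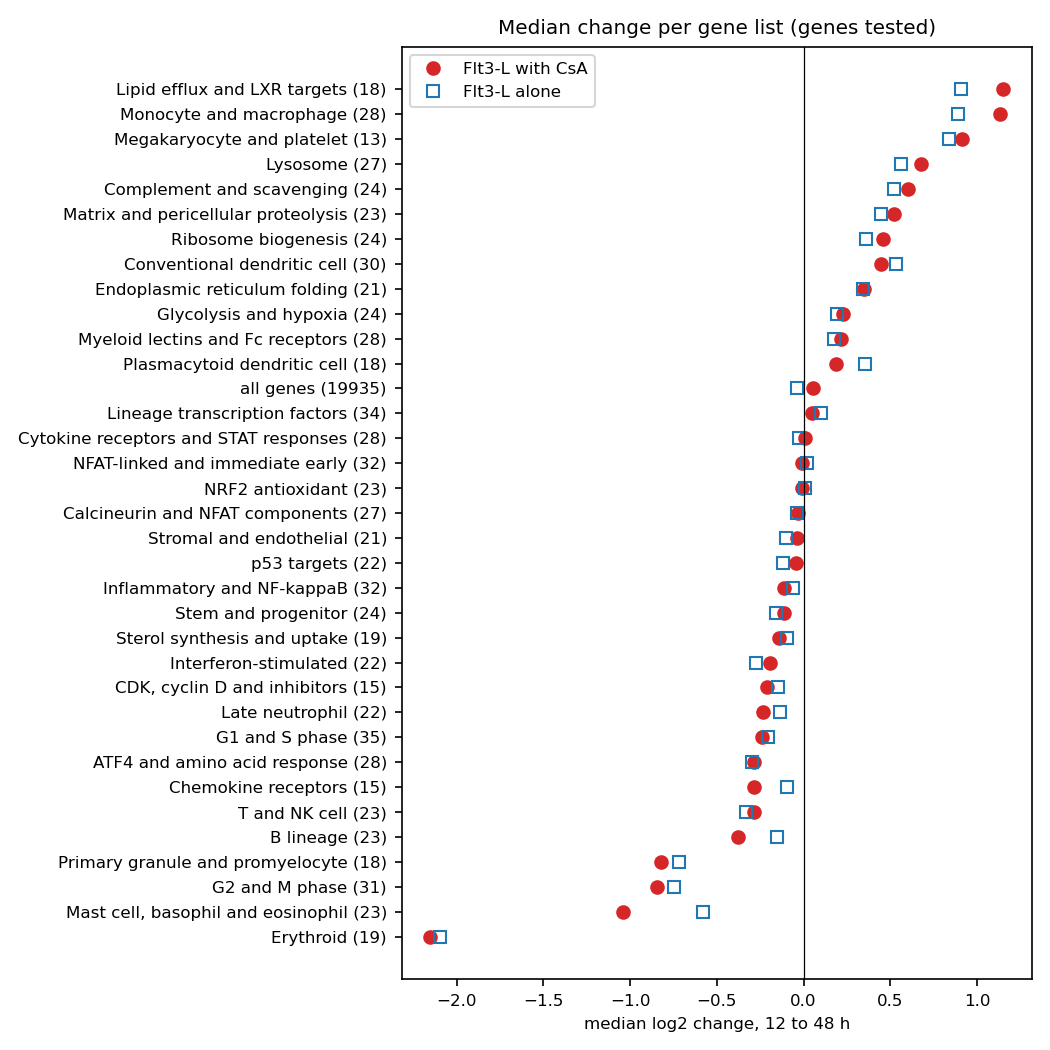
Median log2 change from 12 h to 48 h (horizontal axis) for each gene list (vertical axis, genes tested in brackets), with CsA as filled circles and with Flt3-L alone as open squares. The erythroid list was lowest in both arms, and the list of mast cell, basophil and eosinophil genes stood at -1.04 with CsA and -0.58 without.

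The difference between the arms was tested directly, as the CsA change minus the change without CsA. It was positive for 88 genes (0.441%) and negative for 66 (0.331%). These counts depended on single arrays and on centring. Without CsA array 3 at 12 h they were 413 and 176, and without CsA array 1 at 48 h they were 18 and 25. Leaving out any other array, apart from CsA array 1 at 12 h and Flt3-L array 1 at 48 h, also moved the positive count by over 1.5 times, to between 25 and 55, and the negative count fell to between 26 and 41 in each of these fits but that without CsA array 2 at 48 h. With each array's median subtracted they were 30 and 90, so 25.0% in place of 57.1% of the calls were positive. Over all genes, 2354 differences were positive and 976 negative at an unadjusted p under 0.05. None of the 31 G2 and M phase genes passed the limma test of the difference after adjustment, though 13 were negative at an unadjusted p under 0.05. None of the 19 erythroid genes passed it, and 1 was positive at an unadjusted p under 0.05. For Rhag the difference was 0.01 ± 0.09 (SE) with a 95% interval of -0.17 to 0.20, and for Cenpf -0.21 ± 0.08 (SE) with -0.39 to -0.04.

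**Figure D3:**
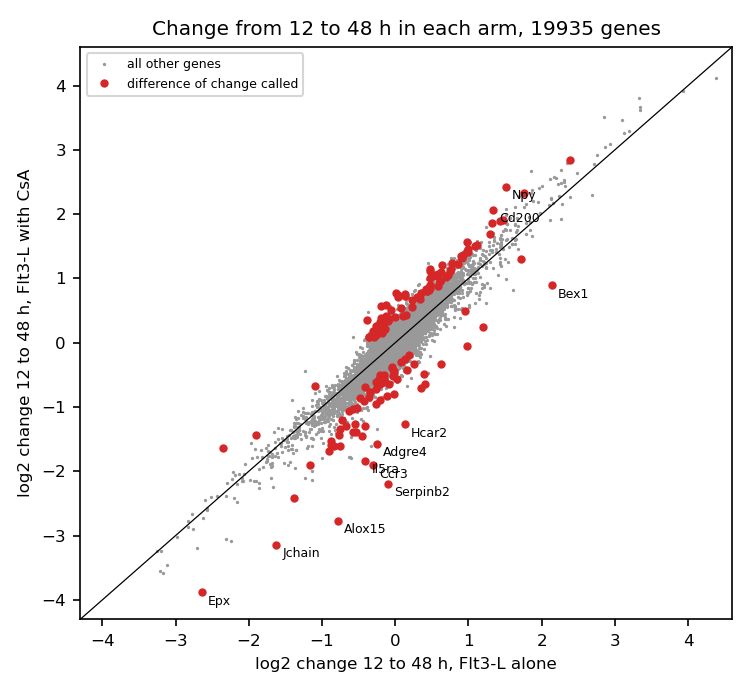
Log2 change from 12 h to 48 h with CsA (vertical axis) against the change with Flt3-L alone (horizontal axis) for 19935 genes; red points are genes whose difference of change passed the test, and the line marks equal change. Most genes lie along the line (r = 0.901), and Alox15, Serpinb2, Ccr3 and Il5ra lie well below it.

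Genes of eosinophils, basophils and mast cells gave 8 of the 66 negative differences. Of 23 mast cell, basophil and eosinophil genes, 17 fell with CsA and 16 without, against 16.8% and 14.7% of all genes. A called negative difference was found for 8 of the 23, against 0.331% of all genes. Over 21 alternative fits that number ran from 6 to 10. The 8 were Epx, Ear6, Alox15, Ccr3, Il5ra, Prss34, Ms4a2 and Gata2. Epx, Ear6, Alox15, Ccr3 and Il5ra kept their calls in all 21 alternative fits, and Gata2 (difference -0.46 ± 0.10 SE) lost its call in 9. Prss34 and Ms4a2 were not followed one by one. Where the number was 6, Prss34, Ms4a2 or both must have lost the call. Defining mast cell protease genes stood near the floor throughout: Mcpt1 had a mean log2 intensity of 4.01 at 12 h with CsA and Cma1 5.28, and neither passed the test. The list was chosen with earlier results of these data known, and is no independent support for its direction.

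Alox15, a lipoxygenase abundant in eosinophils, read 10.14, 10.22 and 10.36 at 12 h and 7.14, 7.58 and 7.69 at 48 h with CsA, and 10.09, 10.33 and 10.34 and then 9.24, 9.49 and 9.67 without. The arms overlapped at 12 h and lay apart at 48 h, and the difference of change was -1.99 ± 0.17 (SE) (limma adjusted p = 6.74e-07). Ccr3, the eotaxin receptor, read 8.84, 8.94 and 9.01 and 6.91, 7.04 and 7.10 with CsA against 9.16, 9.30 and 9.55 and 8.94, 9.07 and 9.07 without (difference -1.60 ± 0.19 SE, limma adjusted p = 0.000129). Its CsA arrays already lay below the others at 12 h. Il5ra, the receptor chain for the eosinophil growth factor IL-5, read 7.55, 7.98 and 7.65 and 5.64, 6.05 and 6.00 against 7.43, 7.85 and 7.83 and 7.24, 7.25 and 7.39 (difference -1.42 ± 0.18 SE, limma adjusted p = 0.000328). Epx, eosinophil peroxidase, fell in both arms, 14.7-fold from 10.95, 11.11 and 11.07 to 7.05, 7.21 and 7.23 with CsA and 6.24-fold from 10.76, 11.08 and 11.10 to 8.22, 8.27 and 8.53 without (difference -1.24 ± 0.17 SE, limma adjusted p = 0.000617). Without CsA array 3 at 12 h the differences were -1.93 for Alox15, -1.56 for Ccr3, -1.46 for Il5ra and -1.22 for Epx. The ribonuclease gene Ear6 had a difference of -1.04 ± 0.18 SE, while the major basic protein gene Prg2 did not pass the test (difference -0.15 ± 0.14 SE, limma adjusted p = 0.572). The basophil protease gene Mcpt8 fell 8.33-fold with CsA and 4.95-fold without, and its difference did not pass either (-0.75 ± 0.23 SE, limma adjusted p = 0.113).

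**Figure D4:**
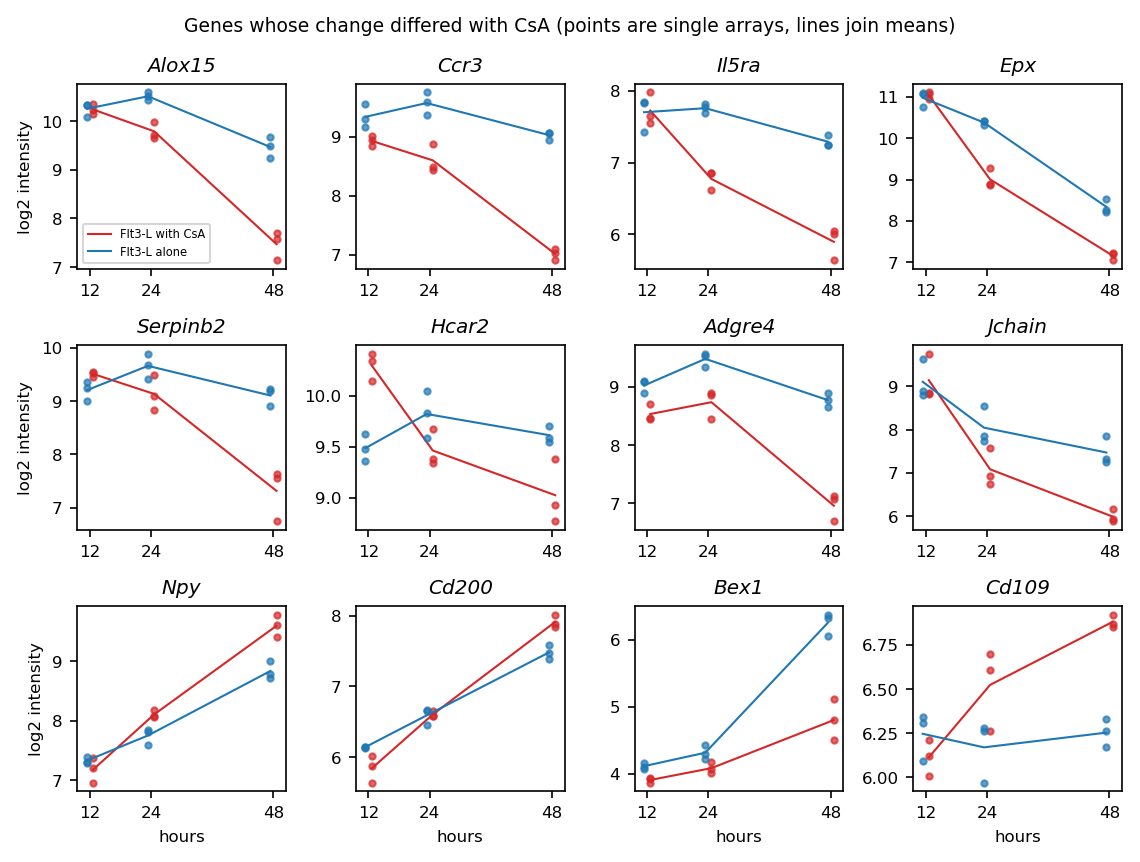
Log2 intensity (vertical axes) at 12, 24 and 48 h (horizontal axes) for 12 genes whose change differed between the arms; points are single arrays, red with CsA and blue with Flt3-L alone, and lines join group means. The arms of Alox15 and Il5ra overlapped at 12 h and lay apart at 48 h, and Npy and Cd109 ended higher with CsA.

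Genes outside that list differed as well. Serpinb2, an inhibitor of plasminogen activators, had the largest negative difference: it read 9.46, 9.54 and 9.53 and then 6.74, 7.56 and 7.64 with CsA and 9.0, 9.25 and 9.36 and then 8.90, 9.19 and 9.22 without (difference -2.10 ± 0.31 SE, limma adjusted p = 0.00093). Its CsA arrays were the higher ones at 12 h and the lower ones at 48 h. Hcar2, a receptor for nicotinic acid, fell from 10.41, 10.34 and 10.14 to 8.77, 9.38 and 8.93 with CsA and stood at 9.48, 9.62 and 9.36 and 9.59, 9.70 and 9.55 without. The arms were apart at 12 h, where CsA arrays were higher, and again at 48 h, where they were lower. The adhesion receptor gene Adgre4 had a difference of -1.32 ± 0.19 (SE). Bex1 read 3.92, 3.87 and 3.94 at 12 h with CsA and 4.17, 4.10 and 4.08 without, near the level of Lum and Mcpt1, so no fold is given. At 48 h it read 4.80, 5.11 and 4.50 with CsA and 6.05, 6.37 and 6.33 without, and the arms did not overlap. Jchain, the joining chain of secreted antibodies, had a difference of -1.52 ± 0.37 (SE) (limma adjusted p = 0.0486), a call that was lost in 12 alternative fits.

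Positive differences were smaller. Npy, which encodes neuropeptide Y, read 7.20, 6.96 and 7.37 and then 9.78, 9.61 and 9.40 with CsA and 7.30, 7.29 and 7.40 and then 9.01, 8.72 and 8.78 without: it rose 5.36-fold against 2.84-fold (difference 0.92 ± 0.14 SE, limma adjusted p = 0.00129). Cd200, an inhibitory ligand for myeloid cells, rose 4.2-fold against 2.53-fold (difference 0.73 ± 0.11 SE). Cd109 read 6.01, 6.21 and 6.12 and 6.87, 6.85 and 6.92 with CsA and 6.09, 6.31 and 6.34 and 6.26, 6.33 and 6.17 without (difference 0.76 ± 0.14 SE). The differences of Clec4n (0.77 ± 0.19 SE), Krtap10-4 (0.74 ± 0.17 SE), Cd59a (0.72 ± 0.15 SE), Dio2 (0.71 ± 0.15 SE) and Hmga2 (0.70 ± 0.14 SE) passed the test. Their calls were lost in 13, 9, 5, 3 and 5 of 21 alternative fits. Cd59a fell in both arms, with log2 changes of -1.63 with CsA and -2.36 without. Clec4n was lower with CsA at 12 h (mean 8.11 against 9.4) and at 48 h (8.69 against 9.21). The CsA arrays of Krtap10-4 at 12 h and 48 h overlapped. The macrophage marker gene Adgre1 rose in both arms, by 1.35 ± 0.06 (SE) with CsA and 0.89 ± 0.06 (SE) without on the log2 scale.

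Of the NFAT-linked genes, 1 of 32 had a called positive and 2 a called negative difference, where 0.441% and 0.331% of all genes did. Nr4a2 was positive (0.46 ± 0.10 SE), and Junb (-0.34 ± 0.08 SE) and Ptgs2, the inducible cyclooxygenase gene (-0.96 ± 0.21 SE), were negative. Whether these calls hold in the alternative fits was not tested. None of the 27 calcineurin and NFAT component genes passed the limma test of the difference, and at an unadjusted p under 0.05, 3 were positive and 1 negative. For Rcan1 the difference was 0.02 ± 0.13 (SE) with a 95% interval of -0.25 to 0.28. The dendritic cell chemokine gene Ccl22 rose without CsA (log2 change 0.98 ± 0.13 SE) and did not pass the test with it (-0.05 ± 0.13 SE), a difference of -1.04 ± 0.18 (SE) (limma adjusted p = 0.0073). Ccl17 fell with CsA (-0.56 ± 0.08 SE) and not by the test without it (0.02 ± 0.08 SE), a difference of -0.58 ± 0.11 (SE). The differences of Ccl22 and Ccl17 were not followed in the alternative fits either.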

How the data were processed

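RNA from 27 samples, 9 groups of 3 (24 cultures with Flt3-L and 3 samples of unstimulated marrow), was hybridised to Affymetrix arrays with a single label. The deposited values are 1 intensity per probe set, which the authors made with RMA, per the submitters' notes, where no version is named. The deposited intensities are linear (5.2 to 18180.7, with array medians of 114.2 to 124.8), and log2 was taken here. Precision rests on 3 arrays a group. RMA in its usual form brings arrays to a common distribution, so changes are relative to the other genes of an array.

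Of 28815 probe sets, 21780 had 1 gene symbol, 1605 had several and 5430 had none in the platform annotation, and only the first kind was used. The brightest probe set stood for each of 998 genes that had several, which left 19935 genes. limma 3.58.1 (R 4.3.3) gave group means, contrasts and moderated tests, and its fit was tested on simulated data. Alternatives changed the variance model, a filter on dim genes, the normalization, the centring, the groups in the fit, the probe set rule, array weights, the pseudocount (32) and the replicate block, or left out single arrays.

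The comparison, the 34 lists (884 entries, 823 of them matched) and the naming rule were chosen with earlier results of these data known. By that rule the text names the 15 strongest rises and 15 strongest falls whose groups did not overlap, the 8 strongest called differences between arms each way, up to 4 members per list, and 11 genes of the calcineurin, NFAT and cyclin pathways. Predicted genes, small RNAs and receptor segments were left out of the ranks. Other list members named were picked after their values were seen.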

Additional observations from a re-analysis of the deposited data

Results flagged for a closer look

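The change from 12 h to 48 h differed between cultures with and without CsA, by the test of the difference in limma, for 23 of the genes chosen by the naming rule. On the log2 scale the change with CsA was below the change without it for Serpinb2 (-2.10), Alox15 (-1.99), Ccr3 (-1.60), Jchain (-1.52), Il5ra (-1.42), Hcar2 (-1.40), Adgre4 (-1.32), Epx (-1.24), Bex1 (-1.24), Ear6 (-1.04) and Gata2 (-0.46). It was above for Npy (0.92), Clec4n (0.77), Cd109 (0.76), Krtap10-4 (0.74), Cd200 (0.73), Cd59a (0.72), Dio2 (0.71), Hmga2 (0.70), Lrp12 (0.45), Ccnd1 (0.43), Lipa (0.37) and Srxn1 (0.35). The calls for Lrp12, Ccnd1, Lipa and Srxn1 were lost in 5, 10, 6 and 10 of 21 alternative fits, with array medians subtracted among them for each. Bex1 read near the floor at 12 h in both arms (means of 3.91 and 4.11), so the size of its difference is limited by it. Over all genes 88 differences were positive and 66 negative.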

How the results depend on the processing

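The counts for CsA 48 h against 12 h, for Flt3-L alone and for CsA 48 h against 24 h stayed within 1.5 times under every alternative run. The counts of differences between the arms did not (88 positive, 66 negative). Positive differences numbered 30 with array medians subtracted, 26 with only the groups compared, 995 with array weights and 134 with a pseudocount of 32. Negative ones numbered 33 with only the groups compared and 477 with array weights. Leaving out 1 array gave 18 to 413 positive and 25 to 176 negative. From 12 h to 24 h with CsA, only the groups compared gave 881 rises and 1085 falls, and subtracting array medians moved the split to 1114 and 2077. The causes were not tested. With array weights 67.6% and with only the groups compared 44.1% of called differences were positive. With the replicate number as a block, differences numbered 208 and 126; deviations of equally numbered CsA arrays at 12 h and 48 h correlated at -0.03, 0.40 and -0.17, those at 12 h and 24 h at 0.06, 0.42 and 0.14, and those at 24 h and 48 h at 0.41, 0.39 and 0.05. With Flt3-L alone they were 0.05, 0.27 and -0.04 for 12 h and 48 h. In none of these were all 3 above 0.1, and the numbers were not taken to pair arrays. Unequally numbered CsA arrays gave -0.46 to 0.44 for 12 h and 48 h, -0.4 to 0.23 for 12 h and 24 h and -0.4 to 0.06 for 24 h and 48 h. Some genes kept an order by number: Jchain array 2 was the highest in each CsA and Flt3-L alone group from 12 h to 48 h. Whether arrays of equal number share a source was not tested. No gene chosen by the naming rule reversed, and the other genes named in the text were not followed one by one in these fits. With 3 arrays a group, small differences between the arms are not resolved.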

Other observations

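Some genes turned between the steps with CsA. They passed the limma test in one direction from 12 h to 24 h and in the other from 24 h to 48 h. Of the 19935 genes tested, 34 rose and then fell, and 43 fell and then rose. The 24 h arrays enter both steps with opposite sign, so an error in them alone would look the same. The thiamine transporter gene Slc19a2 changed by 0.80 and then -0.73 on the log2 scale, and Psrc1 by 0.50 and then -0.99. Genes known as p53 targets were among those that rose and fell, with Eda2r at 0.60 and -0.53, Trp53inp1 at 0.24 and -0.71 and Ccng1 at 0.32 and -0.21. They were picked after their values were seen. Of the 22 p53 targets listed, 7 rose and 4 fell in the first step, where 8.13% of all genes rose and 8.23% fell. In the second step 3 rose and 9 fell, where 13.0% of all genes rose and 9.24% fell. The rises in the second step were near the share of all genes.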
